A study of Homo sapiens with 60 samples.

Results

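The cytosolic heat shock genes are 10 rows of a gene-level RNA-seq table with 60675 Ensembl gene identifiers, listed by gene symbol. They are HSPA1A, HSPA1B and HSPA8 of the HSP70 family, HSP90AA1 and HSP90AB1 of the HSP90 family, the HSP70 helpers HSPH1, DNAJB1 and BAG3, and the small heat shock proteins HSPB1 and CRYAB. Each symbol matched 1 identifier, and all 10 were among the 17792 genes tested.

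The RNA came from SW1783, a human astrocytoma cell line, 24 h after treatment, in 60 libraries that form 20 groups of 3. The groups are vehicle (DMSO), wortmannin at 10 µM, which is an inhibitor of phosphoinositide 3-kinases and serves as the study's positive control, and water extracts of 6 medicinal herbs at 3 doses each. The high, medium and low doses were 500, 100 and 20 µg/mL for Liriopis seu Ophiopogonis Tuber, Schisandrae Fructus, Longan Arillus, Zizyphi Semen and Aucklandiae Radix, and 250, 50 and 10 µg/mL for Polygalae Radix. The series text ties the lower doses to the concentration that inhibits 20% of the cells (IC20), where that lay under 500 µg/mL. All groups share the line, its medium and the 24 h time point, and the labels do not say whether the extracts and wortmannin contained DMSO. The vehicle is labelled 0.1% DMSO, whereas the series text gives 2%. Herbs are called below by the first word of their names.

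Heat shock proteins bind unfolded or partly folded proteins and keep them from clumping. HSP70 proteins work in cycles of ATP hydrolysis that J-domain proteins start and nucleotide exchange factors end, HSP90 proteins act later on kinases, receptors and other clients, and small heat shock proteins hold unfolded chains without ATP. Heat shock factor 1 (HSF1) raises their transcription when unfolded protein builds up, by binding heat shock elements, which are inverted repeats of GAA. HSPA8 and HSP90AB1 are known as the constitutive forms, and HSPA1A, HSPA1B and HSP90AA1 as the more inducible ones. Small heat shock proteins and BAG3 are abundant in many gliomas.

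Total expected counts ran from 9340000 to 35350000 per library with a median of 25710000, and the lowest member count in any library other than for CRYAB was 644. CRYAB had 6 to 73 counts per library. The lowest total belonged to Liriopis low replicate 3. Liriopis high replicate 1 stood apart from its group, with a mean correlation of 0.945 with its 2 partners. By the first part of the library names, vehicle, wortmannin, Liriopis with Schisandrae, Longan with Zizyphi, and Polygalae with Aucklandiae make 5 separate sets, although all titles name the same batch. Treatment against vehicle and a difference between these sets therefore cannot be told apart, while the doses of a herb share a set. Vimentin (VIM) and CD44, which mark mesenchymal-like glioma cells, averaged 4690 and 2760 counts-per-million (CPM) in vehicle. Of the astrocyte markers, SLC1A3 averaged 30.9 CPM in vehicle and was detected in every library, whereas GFAP, S100B and ALDH1L1 were near 0, at 0.145, 0.0476 and 0.0468 CPM, and AQP4 was at 0 in 51 of 60 libraries. NES, a progenitor marker, averaged 7.09 CPM. In such bulk samples, fewer cells of a type and less RNA per cell cannot be told apart.

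The proximal promoters of the members are shown as background, and their part in the changes below was not tested. RefSeq sequences of GRCh38.p14 were found for 9 of the 10 members (not for CRYAB), and 250 bases before each annotated start were searched for heat shock elements on both strands. GAANNTTCNNGAA, with 3 units, was found in 0.441% of 35116 promoters, and GAANNTTC or TTCNNGAA, with 2 units and contained in every longer match, in 11.6%. HSPA8, HSP90AA1 and HSP90AB1 held the 3-unit form, and HSPA1A, HSPA1B, HSPB1 and DNAJB1 the 2-unit form only. The match was at 1 of 2 annotated starts of HSP90AA1, and at 1 of 3 of HSP90AB1 and of DNAJB1. The motifs of HSPA8 and HSP90AA1 lie in exons of other transcripts. Neither form was present in the windows of HSPH1 and BAG3. Below, 1 matched motif per stretch is in capitals, each sequence runs 5′ to 3′ on the strand of its gene, and the stretches are chr6:31815392-31815463 (+), chr6:31827588-31827685 (+), chr11:123062171-123062199 (−), chr14:102087112-102087140 (−), chr6:44247733-44247835 (+), chr7:76302446-76302543 (+) and chr19:14518422-14518519 (−), in this order.
HSPA1A: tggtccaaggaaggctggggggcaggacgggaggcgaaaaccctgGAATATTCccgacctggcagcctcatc
HSPA1B: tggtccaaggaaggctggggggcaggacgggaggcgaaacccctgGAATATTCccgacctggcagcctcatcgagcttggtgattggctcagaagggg
HSPA8: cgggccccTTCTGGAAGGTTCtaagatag
HSP90AA1: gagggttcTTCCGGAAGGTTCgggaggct
HSP90AB1: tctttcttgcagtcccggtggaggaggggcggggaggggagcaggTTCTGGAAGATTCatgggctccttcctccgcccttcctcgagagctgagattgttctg
HSPB1: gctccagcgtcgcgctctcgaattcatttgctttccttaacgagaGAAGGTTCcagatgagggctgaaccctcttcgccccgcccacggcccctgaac
DNAJB1: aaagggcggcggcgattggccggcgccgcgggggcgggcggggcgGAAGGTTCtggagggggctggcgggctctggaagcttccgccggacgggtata
Counted from the RefSeq starts, the motif lies 106 to 99 bases before HSPA1A and 105 to 98 bases before HSPA1B, in nearly the same surrounding bases. The GENCODE coordinates given below start HSPA1A at 31815464, nearer to its motif at chr6:31815437-31815444. Over the 250 bases, the promoters of these neighbouring genes are 93.6% identical. The DNAJB1 stretch holds a second 2-unit match, left in lower case, 47 to 40 bases before the start. HSPA8 and HSP90AB1 each have a second 3-unit match, not marked above, 230 to 218 and 112 to 100 bases before the start. These matches are letters in a window, not measured binding.

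HSPA1A (ENSG00000204389, chr6:31815464-31817946, +) and HSPA1B (ENSG00000204388, chr6:31827735-31830255, +) encode the stress-inducible HSP70. Their coding sequences are identical at 1922 of 1926 positions, 99.8%, against 49.1% after the stop codon, so most reads cannot be placed on 1 of the 2 genes. The expected counts were not whole in 59 of 60 libraries for HSPA1A and in 58 for HSPA1B, which is how the authors' counting shows shared reads, and their sum is given beside each gene. HSPA1A took 46.8% to 56.3% of that sum. HSP90AA1 (chr14:102080738-102139699, −) and HSP90AB1 (chr6:44246166-44253888, +) had fractional counts in 60 of 60 libraries. On a scale of CPM per kilobase of exon, which allows genes to be compared, HSP90AB1 was the highest member in vehicle at 535, followed by HSPA8 at 260, HSP90AA1 at 218 and HSPB1 at 202. HSPA1A stood at 52.3, HSPA1B at 45, DNAJB1 at 39.3, BAG3 at 25.1 and HSPH1 at 15.1. CRYAB stood at 0.405 CPM per kilobase, a percentile of 20.6 among the genes tested, whereas HSP90AB1 lay at a percentile of 99.8.

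The 3 herbs that moved the most members did so in different directions. In Polygalae, HSPA1A, HSPA1B and BAG3 rose at every dose against vehicle, and HSP90AB1 fell at high dose. In Schisandrae high, all 3 HSP70 genes, both HSP90 genes and BAG3 rose, and HSPB1 and DNAJB1 fell. In Aucklandiae high, HSPA1A, HSPA1B, HSPA8 and CRYAB fell and BAG3 rose. Below, a gene rose or fell where the adjusted p was under 0.05 (edgeR's quasi-likelihood test with Benjamini-Hochberg adjustment over the 17792 genes), and fold changes are log2 values with their standard error (SE). The labels do not name replicates as separate cultures, and the p-values then refer to the variation among libraries, which may be technical.

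**Figure D1:**
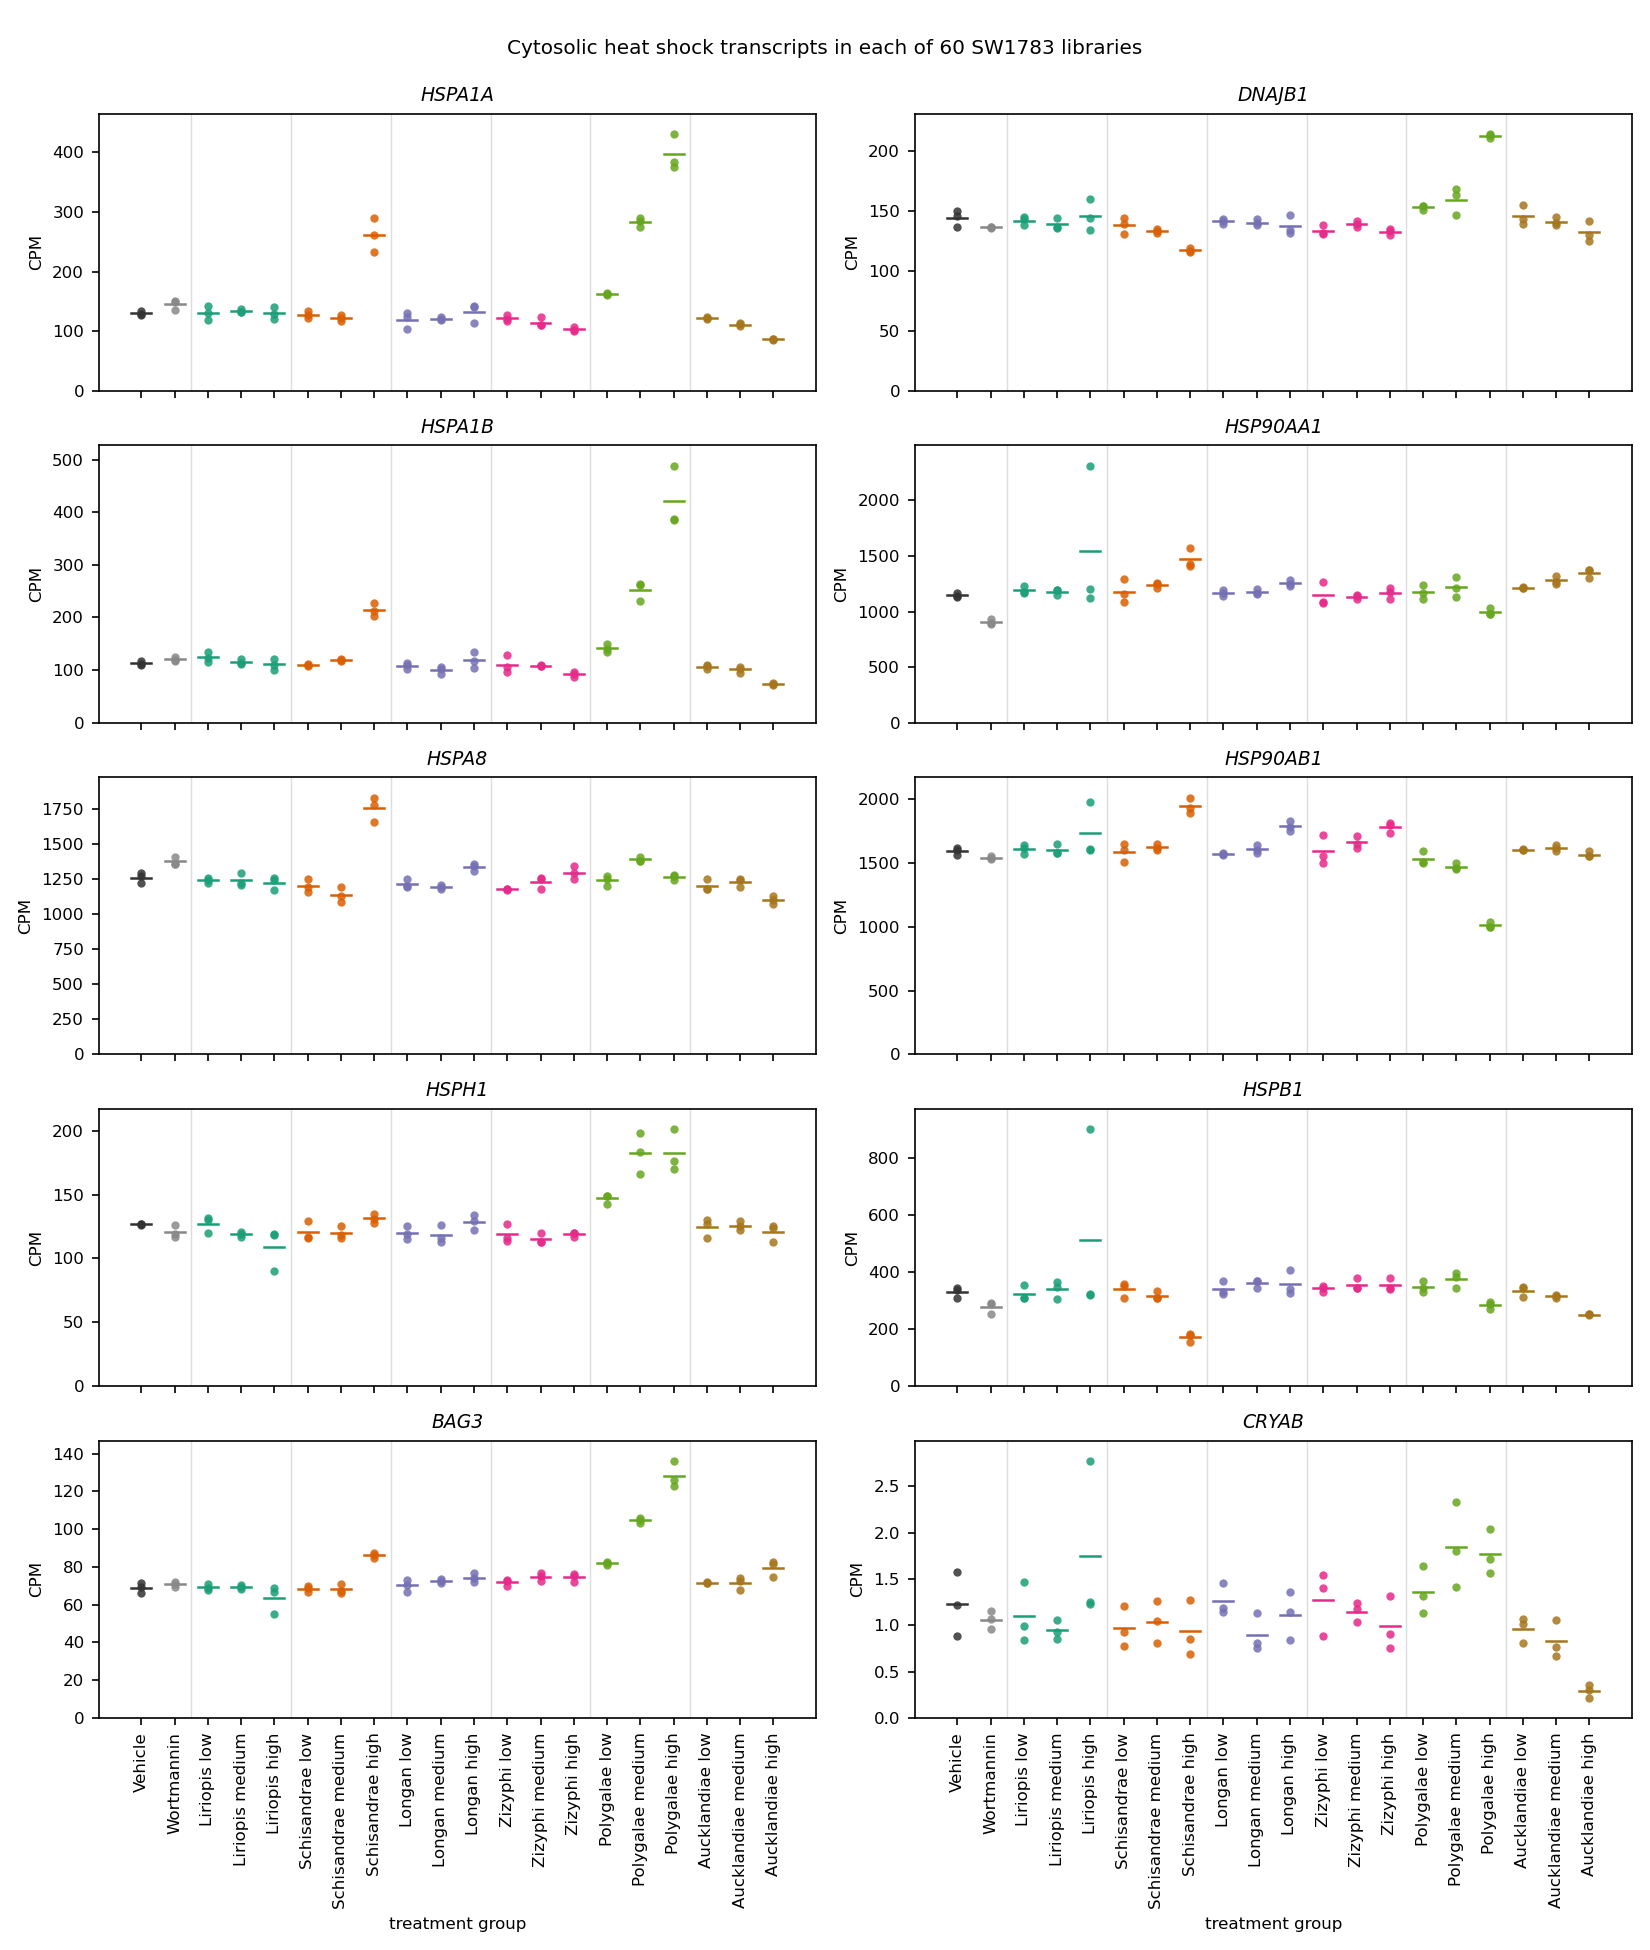
Level in counts-per-million (CPM, linear axes from 0, a scale of its own per gene) of the 10 genes in each of the 60 libraries, by treatment group; points are libraries and bars are means of 3. HSPA1A rises from 127 to 134 CPM in vehicle to 375 to 430 CPM in Polygalae high, and Liriopis high replicate 1 lies far above its partners for HSP90AA1 and HSPB1.

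HSPA1A measured 129, 134 and 127 CPM in the 3 vehicle libraries. In Polygalae it measured 164, 161 and 163 CPM at low, 289, 285 and 275 CPM at medium, and 430, 375 and 384 CPM at high dose. The 4 groups do not overlap, and each dose lies above the one before it. Against vehicle, HSPA1A rose by 0.32 (SE 0.07, adjusted p = 0.0031), 1.13 (SE 0.07, adjusted p = 6.1e-17) and 1.61 (SE 0.07, adjusted p = 6.0e-23) at the 3 doses. HSPA1B, at 118, 112 and 110 CPM in vehicle, measured 488, 386 and 388 CPM at the high dose, a rise of 1.89 (SE 0.09, adjusted p = 3.0e-23). The sum of both genes averaged 243 ± 5.32 CPM (SD, n = 3) in vehicle and 304 ± 6.56, 535 ± 24.6 and 817 ± 87.8 CPM at low, medium and high dose. For the sum, the steps within Polygalae were 0.82 from low to medium (adjusted p = 7.0e-12) and 0.61 from medium to high (adjusted p = 7.3e-09), in libraries of the same set. At the low dose, the call for HSPA1B alone was lost when vehicle replicate 2, vehicle replicate 3 or Polygalae low replicate 2 was left out, with adjusted p of 0.052, 0.071 and 0.09.

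In Schisandrae, the summed HSPA1 level was 435, 517 and 473 CPM at high dose, against 234, 234 and 243 CPM at low and 250, 237 and 241 CPM at medium dose. Only the high dose stands apart from vehicle, at 247, 246 and 237 CPM. The rise against low was 1.00 (SE 0.07, adjusted p = 5.9e-16), and the difference between medium and low was 0.04 (SE 0.07, adjusted p = 1). Aucklandiae went the other way, with 156, 161 and 162 CPM at high dose against 231, 230 and 226 CPM at low dose. The difference was -0.52 (SE 0.07, adjusted p = 5.5e-07). Aucklandiae medium, at 210, 218 and 209 CPM, lay between the 2 other doses, but neither its difference from low (-0.11, adjusted p = 1) nor that from vehicle (-0.19, adjusted p = 0.48) passed the test. The group means of HSPA1A span 4.6-fold, from 86.2 CPM in Aucklandiae high to 396 CPM in Polygalae high, and those of HSPA1B 5.73-fold, between the same groups.

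HSPA8 (ENSG00000109971, chr11:123057489-123063230, −), the constitutive HSP70 that also uncoats clathrin vesicles, measured 1290, 1270 and 1220 CPM in vehicle. It rose in Schisandrae high to 1660, 1830 and 1780 CPM, above every library of the low dose at 1160, 1250 and 1190 CPM. That rise was 0.55 (SE 0.04, adjusted p = 8.7e-16). In Polygalae high it measured 1280, 1240 and 1270 CPM, within the vehicle range, although HSPA1A and HSPA1B had risen there. Its difference from vehicle was 0.00 (95% interval -0.08 to 0.08). With plain library totals in place of TMM factors, the median of all genes in Polygalae high moved by 0.166 to 0.181, and HSPA8 stood at 0.17 (adjusted p = 8.2e-04), close to that median. In Aucklandiae high HSPA8 measured 1130, 1070 and 1100 CPM and fell against vehicle, at -0.20 (SE 0.04, adjusted p = 3.1e-04).

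DNAJB1 (ENSG00000132002, chr19:14514770-14529770, −) is a J-domain protein that delivers clients to HSP70 and starts its ATP hydrolysis. It measured 150, 146 and 137 CPM in vehicle and 211, 214 and 213 CPM in Polygalae high. The high dose stood clear of the low dose, at 154, 154 and 151 CPM, with a rise of 0.47 (SE 0.05, adjusted p = 1.7e-10). In Schisandrae high it measured 119, 116 and 117 CPM, below each vehicle library, and fell against both vehicle (-0.30, SE 0.05, adjusted p = 3.5e-06) and the low dose (-0.23, SE 0.05, adjusted p = 1.8e-04). DNAJB1 thus went down in the same libraries in which the summed HSPA1 level went up.

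HSPH1 (ENSG00000120694, chr13:31134974-31162388, −), an HSP110 that exchanges the nucleotide on HSP70, measured 126, 127 and 127 CPM in vehicle. It measured 149, 149 and 143 CPM at low, 183, 198 and 166 CPM at medium, and 201, 176 and 170 CPM at high dose of Polygalae. Medium and high overlap, at a difference of 0.00 (SE 0.07, adjusted p = 1), whereas high rose against low by 0.31 (SE 0.07, adjusted p = 3.3e-04). Schisandrae high, at 128, 135 and 131 CPM, differed from its low dose by 0.12 (SE 0.07, adjusted p = 0.15).

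BAG3 (ENSG00000151929, chr10:119651370-119677819, +) is an exchange factor of HSP70 that links it to small heat shock proteins and to autophagy. It measured 66.4, 69.3 and 71.4 CPM in vehicle, and 82.3, 80.9 and 82.6 CPM at low, 106, 103 and 105 CPM at medium, and 136, 126 and 123 CPM at high dose of Polygalae. The 4 groups do not overlap. BAG3 rose against vehicle by 0.25, 0.60 and 0.90 (SE 0.05 each, adjusted p = 7.8e-04, 1.3e-13 and 6.6e-20). It also rose in Schisandrae high, to 87.1, 84.7 and 86.4 CPM, by 0.33 against low (SE 0.05, adjusted p = 3.9e-07). In Aucklandiae high, at 81.3, 82.6 and 74.6 CPM, the rise against vehicle was 0.20 (SE 0.05, adjusted p = 0.0033). BAG3 was the only member with a rise at the high dose of all 3 herbs against vehicle. In Aucklandiae, however, that call was lost without the expression filter (0.21, adjusted p = 0.089), and the rise of BAG3 against low, 0.15 (adjusted p = 0.044), was lost without any 1 of 5 of the 6 libraries.

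HSP90AB1 (ENSG00000096384), the constitutive HSP90, measured 1600, 1560 and 1620 CPM in vehicle. In Polygalae it measured 1590, 1500 and 1510 CPM at low, 1460, 1500 and 1450 CPM at medium and 1040, 1000 and 996 CPM at high dose. The 3 high dose libraries are the lowest of all 60, and the next lowest, of Polygalae medium, had 1450 CPM. The fall was -0.66 against vehicle (SE 0.05, adjusted p = 1.1e-15), -0.60 against low and -0.54 against medium (adjusted p = 5.1e-14 and 5.0e-12), and -0.49 against vehicle with plain library totals. In Schisandrae high it went up, to 1890, 2010 and 1930 CPM, by 0.29 against low (SE 0.05, adjusted p = 1.9e-06).

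HSP90AA1 (ENSG00000080824), the more inducible HSP90, measured 1140, 1170 and 1130 CPM in vehicle and 1410, 1570 and 1430 CPM in Schisandrae high, a rise of 0.36 (SE 0.12, adjusted p = 0.0077). In Polygalae high it measured 1030, 974 and 976 CPM, below each vehicle library, with a difference of -0.21 (SE 0.11, adjusted p = 0.14). The SE of HSP90AA1 rests on Liriopis high replicate 1, where it measured 2310 CPM against 1120 and 1200 CPM in the partner libraries. Without that library the SE was 0.05, and the difference of -0.20 in Polygalae high passed the test (adjusted p = 6.0e-04). HSP90AA1 in Aucklandiae high, at 1370, 1300 and 1370 CPM, then also passed, at 0.24 (adjusted p = 3.9e-04). Fits on only the groups compared also leave that library out, and gave adjusted p of 9.3e-04 and 5.1e-04 for the same differences of HSP90AA1. With plain library totals, in a fit that keeps that library, the value in Polygalae high was -0.04 (adjusted p = 0.76). The median of all genes there was 0.181.

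HSPB1 (ENSG00000106211, chr7:76302544-76304295, +), the small heat shock protein HSP27, measured 336, 344 and 311 CPM in vehicle. Schisandrae high stood lowest of all 20 groups, at 183, 156 and 178 CPM, against 357, 352 and 310 CPM at its low dose. The groups do not overlap, and the fall was -0.98 (SE 0.17, adjusted p = 6.2e-06). HSPB1 measured 289, 296 and 270 CPM in Polygalae high and 248, 253 and 253 CPM in Aucklandiae high, below each vehicle library in both. Those differences of HSPB1 from vehicle, -0.21 and -0.39, had adjusted p of 0.33 and 0.14. They passed the test without Liriopis high replicate 1 (adjusted p = 0.011 and 3.4e-05) and in fits on only the groups compared (0.0039 and 2.3e-05). With plain library totals they did not, and HSPB1 stood at -0.05 in Polygalae high (adjusted p = 0.82) and -0.37 in Aucklandiae high (adjusted p = 0.12). That fit keeps Liriopis high replicate 1, and its median of all genes in Polygalae high was 0.181.

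CRYAB (ENSG00000109846, chr11:111908565-111923722, −), the small heat shock protein alpha-B-crystallin, is known for high levels in astrocytes and gliomas. It was the least abundant member in these cells, at 1.57, 1.22 and 0.888 CPM in vehicle. In Aucklandiae high it measured 0.302, 0.217 and 0.353 CPM, the lowest 3 of the 60 libraries, with 6 counts in the lowest. The fall was -2.06 against vehicle (SE 0.33, adjusted p = 7.5e-06) and -1.72 against the low dose at 1.07, 0.804 and 1.01 CPM (SE 0.35, adjusted p = 3.9e-04). Polygalae medium had the highest mean, with 1.8, 1.41 and 2.33 CPM, but overlapped with vehicle, and its difference of 0.59 (SE 0.26, adjusted p = 0.079) passed only without vehicle replicate 1 (0.80, adjusted p = 0.036), without Polygalae medium replicate 2 (0.74, adjusted p = 0.039), without Liriopis high replicate 1 (adjusted p = 0.031) or with plain library totals (0.67, adjusted p = 0.034). CRYAB shares 626 exon bases with HSPB2 on the opposite strand. The strand setting of the counting is not given in the sources used here, so reads of the 2 genes may not have been told apart.

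**Figure D2:**
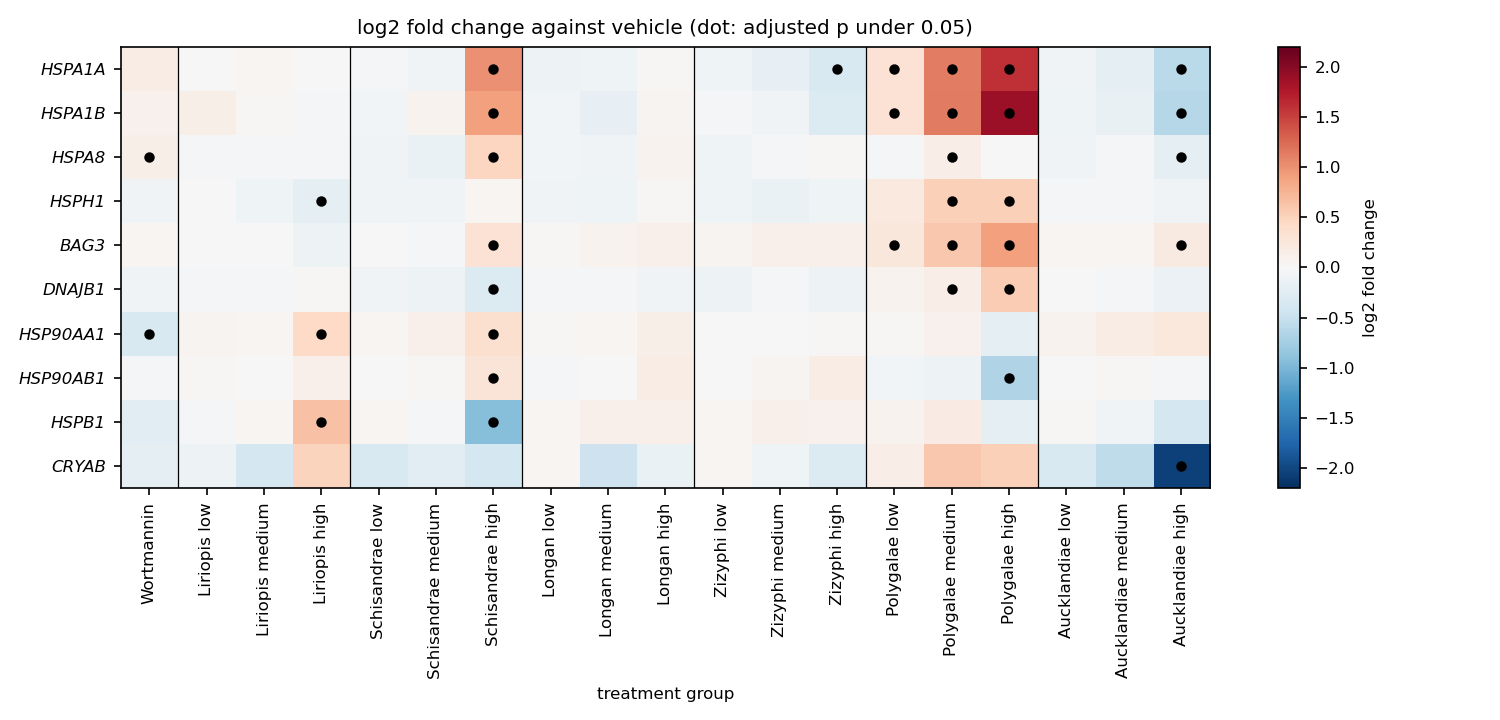
Log2 fold change of the 10 genes (rows) in the 19 treated groups (columns) against vehicle, as colour from blue (lower) to red (higher); a black dot marks an adjusted p under 0.05. HSPA1A, HSPA1B and BAG3 carry a dot at all 3 doses of Polygalae, and Longan carries none.

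By count, Polygalae against vehicle had 3 of 10 members called at low dose (3 higher), 6 at medium (6 higher) and 6 at high dose (5 higher and 1 lower). HSPA1A and HSPA1B share reads, so they are not independent, but they are separate members in all counts and medians. The share of all tested genes called was 6.46%, 30.1% and 46.1% in the same comparisons, with 3.01%, 15.2% and 23.1% higher and 3.46%, 14.9% and 22.9% lower. The members' median was 0.11, 0.35 and 0.53, beside 0.003, 0.013 and 0.016 over all genes. Between doses of Polygalae, 6 members were called from low to high (5 higher and 1 lower, 36.2% of all genes), 5 from low to medium (5 higher, 10.9%) and 6 from medium to high (4 higher and 2 lower, 17.6%). At medium dose the calls for HSPA8 and DNAJB1, both at 0.14 against vehicle (adjusted p = 0.0076 and 0.028), were lost without the filter (0.2 and 0.22), without vehicle replicate 3 (0.06 and 0.17) and with only the groups compared (0.051 and 0.11). That of DNAJB1 was also lost without vehicle replicate 2 (0.052), Polygalae medium replicate 1 (0.21) or Polygalae medium replicate 3 (0.14). Without Liriopis high replicate 1, 9 members were called against vehicle in Polygalae medium (8 higher and 1 lower) and 9 in Polygalae high (6 higher and 3 lower), beside 40.4% and 54% of all genes.

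Schisandrae high had 8 of 10 members called against vehicle (6 higher and 2 lower) and 8 against low (6 higher and 2 lower), beside 50.9% and 49.7% of all genes. Against vehicle, 25.3% of all genes were higher and 25.6% lower. The members' medians, 0.30 and 0.31, stood beside 0.000 and 0.004 over all genes. No member was called by edgeR in Schisandrae medium (1.02% of all genes) or low (0%) against vehicle. At an unadjusted p under 0.05 there were 2 at medium and 0 at low, beside 1857 and 429 of the 17792 genes. DESeq2 called 1 at medium dose, HSPA8. Without Liriopis high replicate 1, edgeR also called HSPA8 there, at -0.14 (adjusted p = 0.014), beside 4.66% of all genes. Aucklandiae high had 5 members called against vehicle (1 higher and 4 lower) and 5 against low (1 higher and 4 lower), beside 13.2% and 10.6% of all genes. Against vehicle, 6.54% of all genes were higher and 6.69% lower. Both counts were 8 without Liriopis high replicate 1, beside 22.8% and 19.3%.

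The high-minus-low responses were also set against each other, although Polygalae was given at 250 and 10 µg/mL and the others at 500 and 20 µg/mL, and Schisandrae libraries are of another set. Between Polygalae and Schisandrae the response of 8 members differed (5 higher and 3 lower in Polygalae, 41% of all genes). HSP90AB1 differed most by p, at -0.89 (SE 0.07, adjusted p = 8.6e-15), followed by DNAJB1 at 0.71 and HSPA8 at -0.53 (SE 0.07 and 0.06, adjusted p = 3.9e-11 and 1.9e-10). Between Polygalae and Aucklandiae, which share a set, 8 differed (7 higher and 1 lower in Polygalae, 22.8% of all genes), and the summed HSPA1 level differed by 1.95 (SE 0.10, adjusted p = 1.1e-19). Between Schisandrae and Aucklandiae 5 differed, all higher in Schisandrae, beside 32.6% of all genes.

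**Figure D3:**
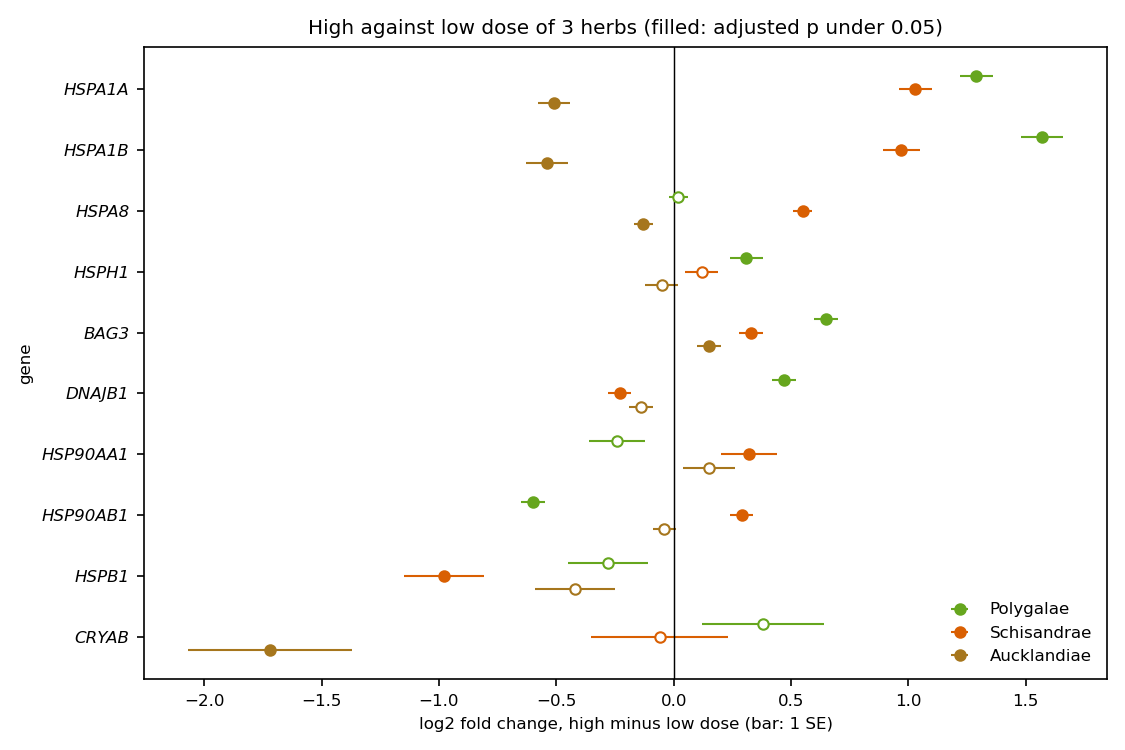
Log2 fold change between high and low dose (points, with bars of 1 SE) of the 10 genes for Polygalae, Schisandrae and Aucklandiae; filled points have an adjusted p under 0.05. HSP90AB1 lies at -0.60 in Polygalae and 0.29 in Schisandrae, and CRYAB at -1.72 in Aucklandiae.

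Wortmannin left 8 of 10 members uncalled, beside 12% of all genes called. HSP90AA1 measured 889, 932 and 896 CPM, below each vehicle library, at -0.34 (SE 0.12, adjusted p = 0.043). HSPA8 measured 1360, 1410 and 1360 CPM, above each vehicle library, at 0.13 (SE 0.04, adjusted p = 0.03). The call for HSP90AA1 was lost without any 1 of the 6 vehicle and wortmannin libraries, and that for HSPA8 without any 1 but vehicle replicate 1. Without Liriopis high replicate 1, however, HSP90AA1 was called at -0.34 (SE 0.05, adjusted p = 1.3e-06) and HSPB1 at -0.25 (adjusted p = 0.0087).

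In Zizyphi high, HSPA1A measured 102, 100 and 107 CPM, below each vehicle library, and fell against vehicle, at -0.33 (SE 0.07, adjusted p = 0.014). The call was lost without vehicle replicate 2 (adjusted p = 0.11), Zizyphi high replicate 1 (0.078) or Zizyphi high replicate 2 (0.097). It was the only member called there with all libraries, beside 0.607% of all genes. The sum with HSPA1B, at 195, 188 and 204 CPM, was lower by -0.32 (adjusted p = 0.019). Without Liriopis high replicate 1, HSPA1A and HSPA1B fell and HSP90AB1 rose against vehicle (adjusted p = 0.0029, 0.036 and 0.0038), beside 2.32% of all genes. Against Zizyphi low no member passed in edgeR with all libraries (0.674% of all genes) and the sum differed by -0.25 (adjusted p = 0.12). Without Liriopis high replicate 1, HSPA1A fell and HSPA8 and HSP90AB1 rose against low (adjusted p = 0.042, 0.029 and 0.0031), beside 2.87% of all genes. No member was called at medium (0.0393% of all genes) or low dose (0%) of Zizyphi, and none by DESeq2. At an unadjusted p under 0.05 there were 2 and 2, beside 779 and 744 of the 17792 genes. In Longan, edgeR called 0 members at high (0.843% of all genes), medium (0.0281%) and low dose (0.00562%) against vehicle. At an unadjusted p under 0.05 there were 3, 1 and 0, beside 2288, 606 and 467 of the 17792 genes. DESeq2 called 1 at high dose, HSP90AB1, at 0.16 (adjusted p = 0.032). Without Liriopis high replicate 1, edgeR also called HSP90AB1 in Longan high against vehicle, at 0.17 (adjusted p = 0.0014), beside 7.02% of all genes. HSP90AB1 measured 1780, 1750 and 1830 CPM in Longan high and 1800, 1730 and 1810 CPM in Zizyphi high, above every vehicle library in both.

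In Liriopis high, edgeR called 3 members against vehicle (2 higher and 1 lower, 34% of all genes), and all 3 rest on replicate 1. That library held 2310 CPM of HSP90AA1 against 1120 and 1200 CPM in its partners, 901 against 322 and 319 CPM of HSPB1, and 90.3 against 119 and 118 CPM of HSPH1. HSP90AB1, at 1980 against 1600 and 1610 CPM, was not called (0.12, adjusted p = 0.055). Its partners lay near vehicle for these genes. Without it 0 members were called against vehicle (0.00553% of all genes), with HSPB1 at -0.04 (adjusted p = 0.94). No member was called at medium (0.0112%) or low dose (0.00562%) of Liriopis, and none by DESeq2. At an unadjusted p under 0.05 there were 0 and 0, beside 560 and 990 of the 17792 genes. In Aucklandiae medium (0.455%) and low (0.00562%) against vehicle no member was called by edgeR either. At an unadjusted p under 0.05 there were 1 and 0, beside 1116 and 631 of the 17792 genes.

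Other genes of the chaperone network were taken from 8 further lists. Their counts stand beside 23.1% of all genes higher and 22.9% lower in Polygalae high against vehicle, and several are near that share. HSF1 itself, whose activity is set mainly after translation, averaged 76.1 ± 5.26 CPM (SD, n = 3) in vehicle and 91.1 ± 1.29 CPM in Polygalae high, a rise of 0.26 (adjusted p = 1.2e-04), and of the 4 genes for heat shock factors and their binding protein 2 rose there and 0 fell. Among 8 other J-domain genes, 5 rose and 1 fell in Polygalae high against vehicle: DNAJB6, which suppresses aggregation, rose by 0.51, whereas DNAJB5 fell, at -0.77 (adjusted p = 8.5e-15 and 2.4e-16). Among 10 HSP90 co-chaperones, 3 rose and 4 fell, with CHORDC1 at 0.80 and AHSA1, which stimulates the HSP90 ATPase, at 0.74 (adjusted p = 3.8e-14 and 1.8e-12). HSPB8, the small heat shock protein partner of BAG3, measured 21.8 ± 1.47 CPM in vehicle and 46.7 ± 1.93 CPM in Polygalae high, a rise of 1.10 (adjusted p = 6.6e-19), and fell in Schisandrae high, as HSPB1 did, at -0.75 (adjusted p = 2.2e-12). Of 13 other genes of the HSP70 family and its exchange factors 7 rose and 3 fell in Polygalae high, with the exchange factor BAG2 at 0.70 (adjusted p = 1.4e-09). Of 3 other small heat shock genes tested 1 rose and 1 fell, and of 7 other heat-inducible genes 3 rose and 2 fell. Of the latter, ZFAND2A, a heat- and arsenite-inducible gene, rose in Polygalae high by 1.04 (adjusted p = 1.9e-09).

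In Polygalae high, 7 of 8 genes fell in each of 2 other folding systems. Of 8 subunits of TRiC, the cytosolic chaperonin that folds actin and tubulin, 0 rose and 7 fell against vehicle (median -0.32 beside 0.016 over all genes), and CCT7 was at -0.75 (adjusted p = 2.0e-13). Of 8 endoplasmic reticulum chaperones, 1 rose and 7 fell (median -1.06). HSPA5, the HSP70 of that compartment, measured 3280 ± 84.7 CPM in vehicle and 881 ± 64.8 CPM in Polygalae high, at -1.90 (adjusted p = 2.1e-28), and HSP90B1, its HSP90, was at -1.41 (adjusted p = 1.8e-26). In Schisandrae high 5 of these 8 rose and 1 fell, beside 25.3% and 25.6% of all genes, with HSPA5 at 7340 ± 188 CPM and 1.16 (adjusted p = 8.0e-21), and HSP90B1 at 0.89 (adjusted p = 3.2e-19). In Aucklandiae high, SERPINH1, the collagen chaperone HSP47, fell at -0.63 (adjusted p = 7.2e-12), while 0 of the 8 endoplasmic reticulum chaperones rose and 1 fell, close to the 6.54% and 6.69% of all genes. In the Polygalae high libraries mitochondrial genes held 12.4% to 13.4% of counts, against 10.3% to 10.6% in vehicle, and their part in these results was not tested.

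**Figure D4:**
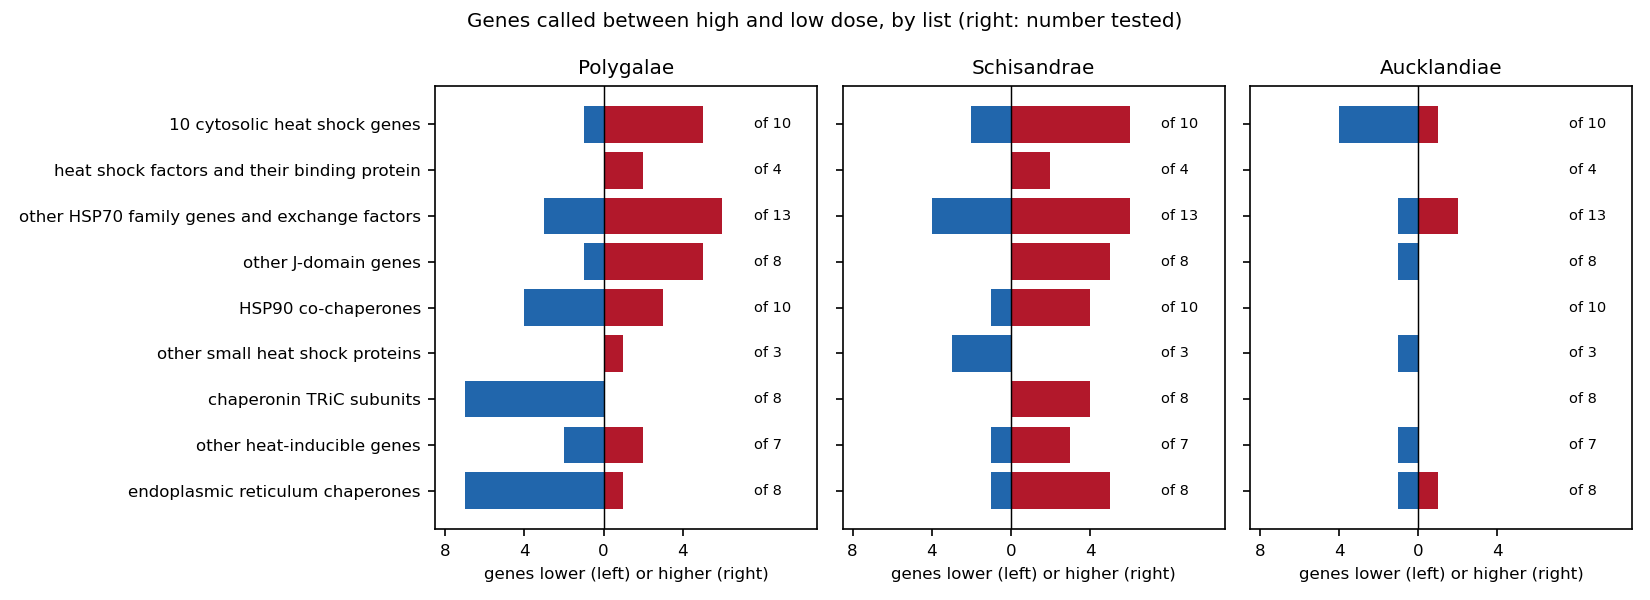
Number of genes higher (red, to the right) or lower (blue, to the left) at an adjusted p under 0.05 between high and low dose, for the 10 heat shock genes and 8 other chaperone lists, with the number tested at the right. In Polygalae 7 of 8 TRiC subunits are lower, whereas in Schisandrae 4 are higher and none is lower. Of all genes, 17.9% are higher and 18.3% lower in Polygalae, 25% and 24.8% in Schisandrae, and 5.32% and 5.3% in Aucklandiae.

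Over the 20 group means, members fell into no single pattern. On the log2 CPM scale, HSPA1A and HSPA1B had a Pearson r of 0.99 and HSPH1 and BAG3 of 0.91, whereas DNAJB1 and HSP90AB1 had -0.91. These groups share vehicle-like libraries and a few strongly affected ones, above all Polygalae high, so the values describe this set of groups. Among the tested protein-coding genes, heat shock genes included, those most like BAG3 were ZNF468, JOSD1, NFE2L2, FAS and FLYWCH1. Their r ran from 0.971 to 0.972, and from 0.933 to 0.955 without Polygalae high. NFE2L2 encodes the oxidative stress factor NRF2. The genes most like the summed HSPA1 level were RAD1 at 0.970, RAB22A and NIPAL4 at 0.955, and GABARAPL1 and CEACAM19 at 0.951. For CRYAB the values were lower, with PICK1 at 0.907 and RBM23 at 0.888 first.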

How the data were processed

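RNA of 60 libraries (20 groups of 3) was sequenced on an MGI instrument with a directional mRNA kit, per the labels' protocols. The authors deposited 1 table of expected counts per gene. The submitters' processing notes list RSEM 1.3.3, STAR 2.7.3a, FastQC 0.11.9, Trim Galore 0.6.5 and the build GRCh38. Neither the annotation release nor the strand setting is stated by any source used here. The series text says that outliers of low RNA content were removed before deposit.

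Expected counts (11.02% not whole) were rounded. With edgeR 4.0.16 (R 4.3.3), genes passing filterByExpr (minimum count 10) were kept (17792), scaled by TMM, and fitted by quasi-likelihood with 20 group means over all 60 libraries (40 residual degrees of freedom, common dispersion 0.00761). Benjamini-Hochberg adjustment was within each of 40 contrasts, with a threshold of 0.05. The script was tested on simulated data. CPM used TMM library sizes, and group means for correlations were log2 CPM with a prior count of 2. Coordinates and exon lengths are those of GENCODE 29 on GRCh38. Depth was 9340000 to 35350000 counts per library. Alternatives were other scalings, DESeq2 1.42.0, no filter, only the groups compared, a replicate block and each of 60 libraries left out; plain library totals were added after seeing the data.

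All 10 members are named, with up to 4 genes of each of 8 other chaperone lists (smallest p over high against low dose) and the 5 most similar genes per reference gene. Members and lists were chosen with earlier results of these data known.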

Additional observations from a re-analysis of the deposited data

Results flagged for a closer look

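The difference between the high-minus-low responses of 2 herbs passed the test for 21 of 30 member and pair combinations (edgeR's quasi-likelihood test of the difference itself, Benjamini-Hochberg adjusted). Of all genes, 41% passed between Polygalae and Schisandrae, 22.8% between Polygalae and Aucklandiae, and 32.6% between Schisandrae and Aucklandiae. HSPA1A and HSPA1B share reads but are counted separately, and the pairs of herbs are not independent. The doses differ (Polygalae 250 and 10 µg/mL, the other herbs 500 and 20 µg/mL), and Schisandrae libraries belong to another set than those of Polygalae and Aucklandiae.

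Polygalae minus Schisandrae differed on the log2 scale by 0.26 for HSPA1A, 0.60 for HSPA1B, -0.53 for HSPA8, -0.56 for HSP90AA1, -0.89 for HSP90AB1, 0.69 for HSPB1, 0.71 for DNAJB1 and 0.32 for BAG3. The value for HSPA1A (adjusted p = 0.042) missed the threshold with DESeq2's size factors in edgeR (0.051) and without the expression filter (0.075).

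Polygalae minus Aucklandiae differed by 1.79 for HSPA1A, 2.11 for HSPA1B, 0.16 for HSPA8, -0.56 for HSP90AB1, 0.36 for HSPH1, 0.61 for DNAJB1, 0.50 for BAG3 and 2.10 for CRYAB. Schisandrae minus Aucklandiae differed by 1.54 for HSPA1A, 1.51 for HSPA1B, 0.69 for HSPA8, 0.33 for HSP90AB1 and 1.66 for CRYAB.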

How the results depend on the processing

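Without Liriopis high replicate 1 the Liriopis high values reversed for HSPB1 against vehicle (-0.04), low (-0.02) and medium (-0.08), and for HSP90AA1 against low (-0.04) and medium (-0.02). Over all libraries left out, the highest values were 0.89, 0.91 and 0.85 for HSPB1 against vehicle, low and medium, and 0.55 and 0.57 for HSP90AA1 against low and medium, each without replicate 2 or 3 of Liriopis high. Most counts of members in this section stand without the share of all genes called in the same setting. A moved count therefore cannot be told from a move over all genes. Counts of members called moved with DESeq2 to 1 in Schisandrae medium against vehicle, 1, 2 and 1 in Longan high against vehicle, low and medium, and 2 in Zizyphi high against low. With only the groups compared they moved to 4 for wortmannin, 0 for Liriopis high against vehicle, low and medium, 2 and 1 for Zizyphi high against vehicle and low, and 1 for Aucklandiae medium against vehicle. Without the filter they moved to 1 for wortmannin and 3 for Aucklandiae high against vehicle and against low, and with library totals to 1 for Longan high against vehicle and against low.

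Leaving out 1 library gave 0 to 3 called for wortmannin, 0 to 6 for each Liriopis high comparison, 0 to 1 for Schisandrae medium and Longan high against vehicle, 0 to 3 for Zizyphi high against vehicle and against low, 0 to 2 for Longan high against low and against medium, and 5 to 8, 3 to 8 and 2 to 6 for Aucklandiae high against vehicle, low and medium. Aucklandiae high against low had 3 without Aucklandiae low replicate 1 or high replicate 2, and against medium 2 without medium replicate 1. The share of all genes called moved as well. Against vehicle and without Liriopis high replicate 1, it was 22.7% for wortmannin, 0.00553% for Liriopis high and 22.8% for Aucklandiae high. With all libraries it was 12%, 34% and 13.2%.

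Over all genes, replicate numbers showed no pairing of the libraries. The mean correlation of deviations was 0.003 over 570 same-numbered pairs and -0.001 over 1140 differently numbered pairs. Within a set it was 0.002 over 135 same-numbered pairs. Such a mean does not exclude a smaller effect of the replicate number. In Longan, replicate 1 had the lowest TMM factor at each dose (0.990, 0.971 and 0.990 at high, medium and low). With the replicate block 6 members were called in Polygalae high, 8 in Schisandrae high and 5 in Aucklandiae high against vehicle, and 4 in Liriopis high. The share of all genes called with the block is not given here. Without the block it was 46.1%, 50.9%, 13.2% and 34% in these comparisons. CRYAB is limited by depth, with 6 to 73 counts per library.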
